A study of Homo sapiens with 6 samples.

Results

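The BCL2 family genes examined here encode proteins that set the point at which a cell enters mitochondrial apoptosis. They were chosen by gene name: 10 members were listed, and each had 1 interval in the deposited count table of 20333 gene intervals. No member fell under the minimum of 10 counts in every library, and all 10 passed the filter on low counts that left 19902 genes for testing. By role, 3 members are pro-survival (BCL2, BCL2L1 and MCL1) and 7 are pro-death. Of the pro-death members, 5 are BH3-only genes (BCL2L11, BBC3, PMAIP1, BMF and BIK) and 2 are effectors (BAX and BAK1).

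BAX and BAK1 open pores in the outer mitochondrial membrane, which releases cytochrome c and starts the caspase cascade. The pro-survival proteins hold them in check, and the BH3-only proteins either neutralise the pro-survival proteins or activate the effectors directly. AKT kinases act on this balance at several levels: they phosphorylate the BH3-only protein BAD, and they keep FOXO transcription factors, which can activate BCL2L11, BBC3 and BMF, out of the nucleus. In luminal breast cells BCL2 is also known as a gene whose transcription depends on the estrogen receptor.

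Transcription was measured by PRO-seq, in which engaged RNA polymerases extend their transcripts in permeabilised cells, so that reads in a gene reflect polymerases at work and not the amount of mature RNA or protein. All libraries came from T47D, an established line of luminal breast cancer cells positive for the estrogen receptor and negative for HER2, grown in medium with 10% fetal bovine serum. For 5 h the cells received DMSO (the solvent), 500 nM GDC0068 (an inhibitor of AKT catalytic activity) or 100 nM of INY-05-040 (a compound that causes AKT proteins to be degraded, here called Degrader after the labels). The doses differ because they were set for similar suppression of downstream signalling, and each arm has 2 libraries, from 2 independent experiments in this 1 line.

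Total counts ranged from 25371819 to 32192576 per library. Levels are given as CPM, that is, counts scaled to a common library size. The luminal marker genes were strongly transcribed as a sum: all 9 listed were tested, with a summed level from 5334 to 5745 CPM. TFF1 was low, at 4.08 to 5.84 CPM. Within the sum, ESR1 had 1192 and 1209 CPM in DMSO and 1062 and 1129 under Degrader. PGR had 791 and 821 CPM in DMSO and 984 and 1050 under Degrader. The part of ESR1 and PGR in the results was not tested. Of the 19 listed markers of other cell types, only ACTA2, OXTR and CD68 had an interval in the table. CD68 had 77.2 to 83.6 CPM in DMSO, 62.6 to 67.6 under GDC0068 and 55.1 to 64.4 under Degrader, and ACTA2 and OXTR together 9.67 to 10.2, 10.2 to 11.2 and 12.6 to 13.5 CPM; the part of such markers in the results was not tested. The replicates of an arm differed by more than sampling noise, with a chi-square per degree of freedom from 4.93 to 6.84. Members were counted by 103 (PMAIP1) to 14463 reads (BCL2L1) per library, where counting error alone is from 9.85% down to 0.832%. Every change below is relative to the bulk of genes, because no spike-in count was used.

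Under Degrader 3 of the 10 members rose and none fell: the pro-survival gene BCL2 and the BH3-only genes BMF and BBC3. Among all genes tested, edgeR called 15.3% in this comparison at an adjusted p under 0.05, and 7.39% were called higher and 7.88% lower. Under GDC0068 only BCL2 of the 10 rose and none fell, where 3.58% of all genes were called with 1.70% higher and 1.88% lower. No member was called between the drugs, where 0.266% of all genes were called (by edgeR; 2 of the 10, BCL2 and BMF, had an unadjusted p under 0.05, and DESeq2 called BMF). Both drug comparisons share the DMSO libraries. With the replicate number added to the model (the replicate block), the counts of called members were 4, 3 and 2 in the same order, while 30.7%, 17.8% and 10.4% of all genes were called.

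**Figure D1:**
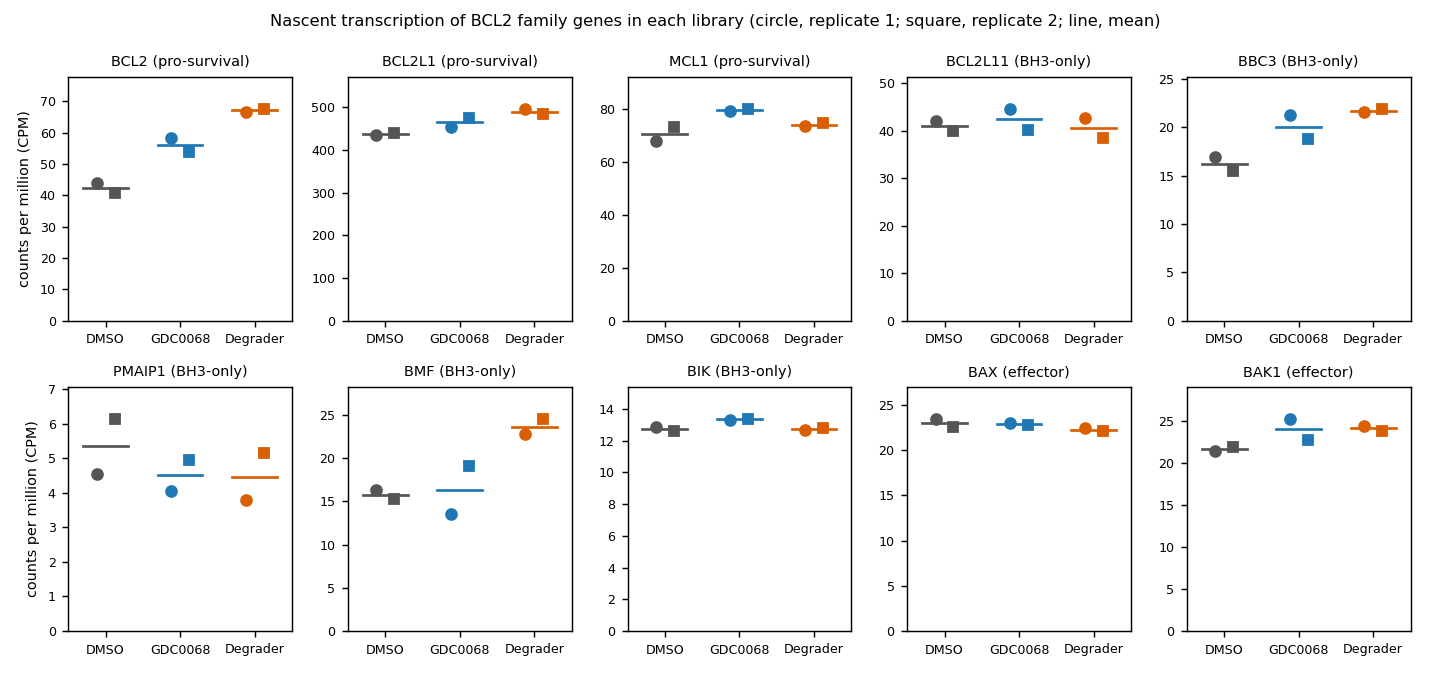
Each panel plots the CPM of 1 gene (vertical axis, from 0) in the DMSO, GDC0068 and Degrader arms, with a circle for replicate 1, a square for replicate 2 and a line at the arm mean. BCL2 steps from about 42.3 CPM in DMSO to 67.1 CPM under Degrader, and BMF separates its GDC0068 libraries at 13.6 and 19.1 CPM.

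Among the pro-survival genes, BCL2 stood apart. BCL2 (ENSG00000171791, chromosome 18, 63123346 to 63320078, minus strand), the founding member of the family, had 43.9 and 40.7 CPM in DMSO. The GDC0068 libraries had 58.3 and 53.7 CPM, and the Degrader libraries 66.6 and 67.6 CPM. No libraries of different arms overlapped, and the order DMSO, GDC0068, Degrader held in both experiments. Between arms that is common: libraries did not overlap in 58.6% of all genes for Degrader and DMSO, in 50.1% for GDC0068 and DMSO and in 45.0% for the drugs.

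The log2 fold change of BCL2 was 0.66 under Degrader (a 1.58-fold rise, edgeR SE 0.0627, adjusted p = 1.43e-04). It was 0.40 under GDC0068 (1.32-fold, edgeR SE 0.0634, adjusted p = 0.00955). In size, the Degrader change of BCL2 exceeded that of 97.7% of all genes tested and its GDC0068 change that of 93.7%. Within replicate 1 the log2 ratio to DMSO was 0.60 under Degrader and 0.41 under GDC0068, and within replicate 2 it was 0.73 and 0.40. The Degrader call held in each of 15 other settings. The GDC0068 call was lost without DMSO replicate 1 (log2 fold change 0.46, edgeR adjusted p = 0.0526) and without DMSO replicate 2 (0.35, edgeR adjusted p = 0.0734), and the range over the 15 settings was 3.00e-06 to 0.0734.

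BCL2 was 0.26 higher on the log2 scale under Degrader than under GDC0068, with a 95% interval from 0.13 to 0.40. This difference was not called without the replicate block (edgeR adjusted p = 0.104) and was called with it (edgeR adjusted p = 9.57e-04). Over the 15 other settings its adjusted p ran from 9.57e-04 to 0.435. The BCL2 interval overlaps no other interval of the table.

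BCL2L1 (ENSG00000171552, chromosome 20, 31664458 to 31722868, minus strand), which encodes BCL-XL, gave 436 and 439 CPM in DMSO, 455 and 475 CPM under GDC0068 and 497 and 484 CPM under Degrader. The Degrader libraries lay above the others, but the step was small. Its log2 fold change under Degrader was 0.16 (edgeR SE 0.0536, adjusted p = 0.0610), not called. It was called under the replicate block (edgeR adjusted p = 8.86e-04), with limma voom, with robust estimation, in the fit to the 4 libraries compared, without GDC0068 replicate 1 (edgeR adjusted p = 0.0494) and without GDC0068 replicate 2 (edgeR adjusted p = 0.0494). Over the 15 settings the adjusted p ran from 8.86e-04 to 0.279. Under GDC0068 the change was 0.09 (95% interval -0.03 to 0.20, edgeR adjusted p = 0.398). The first part of the BCL2L1 interval overlaps the antisense RNA gene ABALON over 1958 bp, and ABALON itself had a mean of 11.1 CPM.

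MCL1 (ENSG00000143384, chromosome 1, 150574558 to 150579587, minus strand), whose protein turns over rapidly, had the opposite order of the drugs. It stood at 67.9 and 73.0 CPM in DMSO, 79.2 and 80.1 CPM under GDC0068 and 73.5 and 74.8 CPM under Degrader. Its log2 fold change under GDC0068 was 0.18 (95% interval 0.06 to 0.30), not called without the replicate block (edgeR adjusted p = 0.0946) and called with it (edgeR adjusted p = 0.00426, range over the 15 settings 0.00426 to 0.455). Under Degrader it was 0.07 (95% interval -0.04 to 0.19, edgeR adjusted p = 0.394). The difference between the drugs, -0.10 with an interval from -0.22 to 0.01, was not called in any of the 15 settings.

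The BH3-only genes split into 2 that rose under Degrader and 3 that did not pass the test. The stretches upstream of BMF and BBC3, the members of this class that rose, and of BCL2L11, which did not, are shown because AKT-controlled FOXO factors are known to act on these genes. Each is the 250 bases before the gene's start in RefSeq GRCh38.p14, 5′ to 3′ on the gene's strand, with capitals marking matches to a forkhead core (GTAAACA), a cyclic AMP response element (TGACGTCA), an E-box (CACGTG) or a GC box (GGGCGG), on either strand.
BMF upstream, chr15:40108880-40109129, minus strand: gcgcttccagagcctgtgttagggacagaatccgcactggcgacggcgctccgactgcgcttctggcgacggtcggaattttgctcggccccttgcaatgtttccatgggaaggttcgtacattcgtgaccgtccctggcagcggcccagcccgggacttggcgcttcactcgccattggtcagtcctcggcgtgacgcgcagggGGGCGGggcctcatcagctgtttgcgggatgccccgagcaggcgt
BBC3 upstream, chr19:47232668-47232917, minus strand: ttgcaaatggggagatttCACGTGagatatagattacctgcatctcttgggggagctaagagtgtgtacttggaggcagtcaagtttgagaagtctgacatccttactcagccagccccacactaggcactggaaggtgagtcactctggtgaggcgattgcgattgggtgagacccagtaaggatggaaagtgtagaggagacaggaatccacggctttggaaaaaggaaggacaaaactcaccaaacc
BCL2L11 upstream, chr2:111120664-111120913, plus strand: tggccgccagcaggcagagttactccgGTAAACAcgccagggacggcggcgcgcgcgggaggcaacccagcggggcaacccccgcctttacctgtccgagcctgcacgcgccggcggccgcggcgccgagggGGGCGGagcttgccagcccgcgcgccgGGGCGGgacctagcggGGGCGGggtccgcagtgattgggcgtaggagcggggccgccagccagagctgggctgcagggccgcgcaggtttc
A single window was searched for each of the 8 members with an entry, and the only forkhead core lies 223 bases before the BCL2L11 start. Of 35116 windows of this length, 2.98% hold one. BMF and BCL2L1 each have 2 entries, of which only the first was searched, and the BMF stretch printed is that one. BMF has 1 GC box, 45 bases before its start, a motif that 42.6% of windows hold, and BBC3 has 1 E-box, found in 6.34% of windows. The RefSeq start of BMF and of BCL2L11 is that of the deposited interval, whereas the BBC3 interval begins 1468 bases downstream of it, so the BBC3 stretch does not adjoin the counted interval. The BCL2 window lies inside the deposited interval and was not printed. Only exact matches to the letters given were sought, so variant forms of a motif are left unmarked. These matches describe the letters in the windows and no binding was measured.

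BMF (ENSG00000104081, chromosome 15, 40087890 to 40108879, minus strand) encodes a BH3-only protein that binds the pro-survival proteins. It had 16.3 and 15.3 CPM in DMSO, 13.6 and 19.1 CPM under GDC0068 and 22.8 and 24.6 CPM under Degrader. Both Degrader libraries were above the other 4, and the GDC0068 libraries lay on either side of DMSO. The log2 fold change under Degrader was 0.58 (1.50-fold, edgeR SE 0.133, adjusted p = 0.0133), larger in size than that of 96.5% of all genes. Within replicates 1 and 2 the log2 ratio of Degrader to DMSO was 0.49 and 0.68.

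Under GDC0068 the change of BMF was 0.06 (95% interval -0.24 to 0.35, edgeR adjusted p = 0.868), with log2 ratios of -0.26 in replicate 1 and 0.32 in replicate 2. BMF was 0.53 higher under Degrader than under GDC0068 (SE 0.133, 95% interval 0.24 to 0.82), more in size than 97.6% of all genes. That difference was not called without the block (edgeR adjusted p = 0.119), but was called under the replicate block (edgeR adjusted p = 8.59e-04), by DESeq2 (adjusted p = 0.0477) and without GDC0068 replicate 2 (0.81, edgeR adjusted p = 0.0297). Without GDC0068 replicate 1 it was 0.31 (edgeR adjusted p = 0.532). Over the 15 settings its adjusted p ran from 8.59e-04 to 0.532. The Degrader call against DMSO was lost without DMSO replicate 1 (0.63, edgeR adjusted p = 0.0679), DMSO replicate 2 (0.54, edgeR adjusted p = 0.0729) or Degrader replicate 2 (0.52, edgeR adjusted p = 0.0987), with a range of 5.15e-05 to 0.0987.

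BBC3 (ENSG00000105327, chromosome 19, 47220827 to 47231199, minus strand) encodes PUMA, a BH3-only protein that binds the pro-survival proteins. It had 16.9 and 15.5 CPM in DMSO, 21.3 and 18.8 CPM under GDC0068 and 21.5 and 21.9 CPM under Degrader. All 4 drug libraries lay above both DMSO libraries. The log2 fold change was 0.42 under Degrader (1.34-fold, edgeR SE 0.0964, adjusted p = 0.0135). Under GDC0068 it was 0.30 (SE 0.0972), not called without the block (edgeR adjusted p = 0.111) and called under the replicate block (edgeR adjusted p = 0.0149, range over the 15 settings 0.0149 to 0.375).

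Between the drugs BBC3 differed by 0.12, with an interval from -0.09 to 0.33 (edgeR adjusted p = 0.606). The Degrader call of BBC3 was narrow in the leave-out fits. The adjusted p was 0.0512 without DMSO replicate 1, 0.0920 without DMSO replicate 2, 0.0505 without Degrader replicate 1 and 0.0911 without Degrader replicate 2 (edgeR), with log2 fold changes from 0.36 to 0.49 and a range over all 15 settings of 3.55e-04 to 0.0920. The BBC3 interval contains MIR3190 on the opposite strand over 748 bp, whose own mean of 73.5 CPM exceeds that of BBC3 in every library.

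The other BH3-only genes did not pass the test in any comparison or setting. BCL2L11 (ENSG00000153094, chromosome 2, 111120914 to 111168444, plus strand) encodes BIM, an activator of the effectors and a textbook FOXO target. It had 42.1 and 39.9 CPM in DMSO, 44.6 and 40.2 CPM under GDC0068 and 42.7 and 38.6 CPM under Degrader. The libraries of all 3 arms overlapped. Its log2 fold change was -0.01 under Degrader, with a 95% interval from -0.18 to 0.15, and 0.05 under GDC0068, from -0.12 to 0.21 (edgeR adjusted p = 0.925 and 0.776). The upper interval bound for Degrader, 0.15, lies below the changes of BMF and BBC3 and below their lower bounds of 0.29 and 0.21.

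BIK (ENSG00000100290, chromosome 22, 43110750 to 43129712, plus strand) was the steadiest BH3-only gene, with all 6 libraries between 12.6 and 13.4 CPM. Its log2 fold change was 0.00 under Degrader (interval -0.21 to 0.21) and 0.07 under GDC0068 (interval -0.14 to 0.27). PMAIP1 (ENSG00000141682, chromosome 18, 59899996 to 59904306, plus strand) encodes NOXA, which binds MCL1. PMAIP1 had the lowest counts, with 4.54 and 6.14 CPM in DMSO, 4.05 and 4.96 CPM under GDC0068 and 3.80 and 5.15 CPM under Degrader. Replicate 2 was above replicate 1 in every arm, and the arms overlapped. Its log2 fold changes of -0.25 and -0.23 under Degrader and GDC0068 had intervals from -0.68 to 0.19 and from -0.67 to 0.21, and leaving out 1 library moved them from -0.49 to -0.02 and from -0.44 to 0.00, so a fall of the size of the rise in BBC3 was not detectable at this depth and spread.

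The effector genes were close to level. BAX (ENSG00000087088, chromosome 19, 48954903 to 48961798, plus strand) stayed between 22.1 and 23.5 CPM in all 6 libraries. Its log2 fold change was -0.05 under Degrader (interval -0.22 to 0.13, edgeR adjusted p = 0.756) and 0.00 under GDC0068 (interval -0.18 to 0.17). BAK1 (ENSG00000030110, chromosome 6, 33572552 to 33580269, minus strand) had 21.4 and 21.9 CPM in DMSO, 25.3 and 22.8 CPM under GDC0068 and 24.4 and 23.9 CPM under Degrader. All drug libraries of BAK1 were above DMSO, yet its changes of 0.16 (interval -0.03 to 0.34) and 0.15 (interval -0.04 to 0.34) under Degrader and GDC0068 were not called (edgeR adjusted p = 0.250 and 0.372). Neither effector was called in any of the 15 settings.

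**Figure D2:**
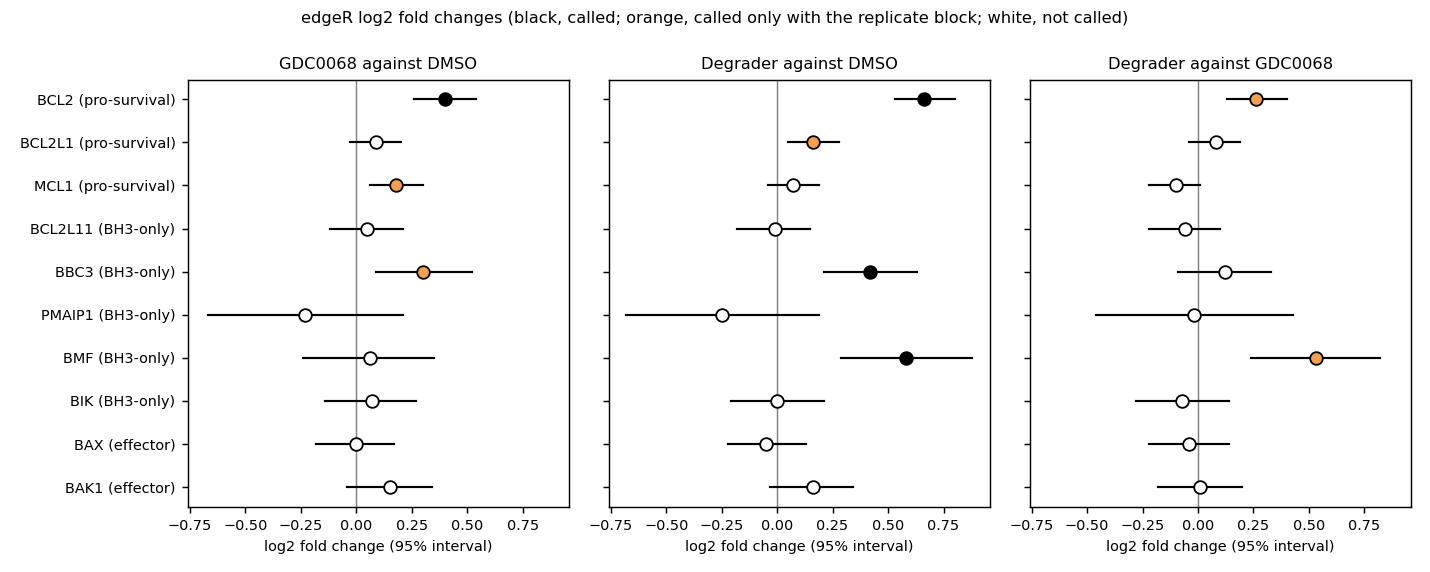
Points are edgeR log2 fold changes of the 10 genes (horizontal axis) with 95% intervals, in 1 panel per comparison; black points were called, orange points only with the replicate block, and white points were not. Black points are BCL2 under GDC0068 (0.40) and BCL2, BBC3 and BMF under Degrader (0.66, 0.42 and 0.58).

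Set side by side, pro-survival and pro-death members both held genes that rose. Under Degrader, where 15.3% of all genes were called, 1 of 3 pro-survival members was called, with a median log2 fold change of 0.16 over the 3, and 2 of 7 pro-death members, with a median of 0.00, the same as the median of all genes tested. Under GDC0068, where the share of all genes was 3.58%, the counts were 1 of 3 and 0 of 7, with medians of 0.18 and 0.06 beside 0.01 for all genes. Between the drugs no member of either class was called, and the medians were 0.08 and -0.02 beside 0.00. Of the pro-death genes not called by edgeR under GDC0068 or between the drugs, 1 had an unadjusted p under 0.05 in each comparison (BBC3 and BMF), and DESeq2 called 0 and 1.

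**Figure D3:**
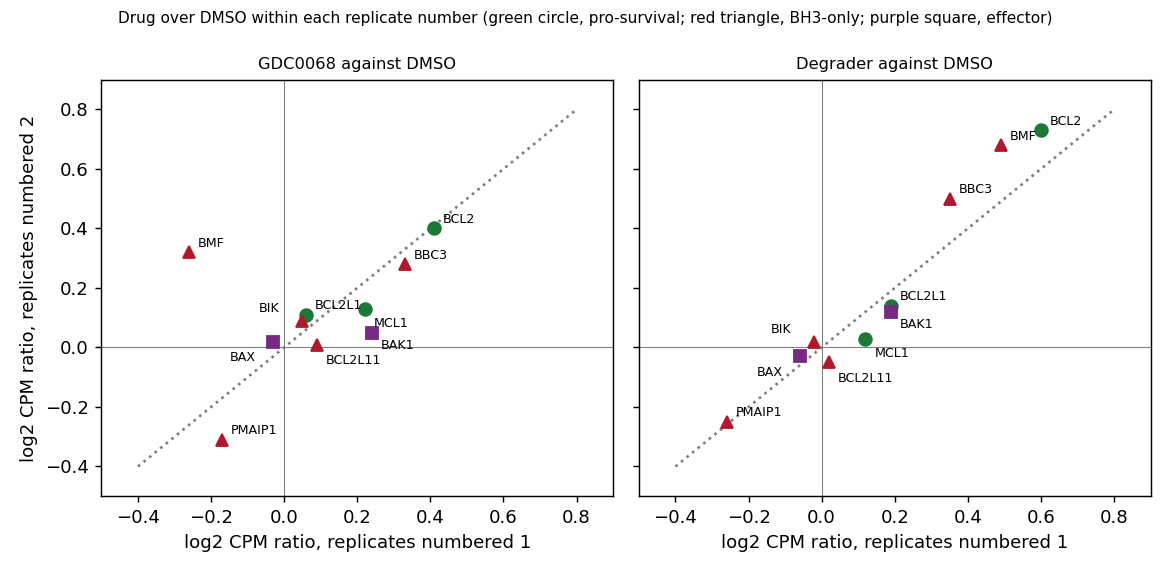
Each point is 1 gene, placed by its log2 ratio of drug to DMSO CPM among the libraries numbered 1 (horizontal axis) and among those numbered 2 (vertical axis); the dotted line marks equal ratios. BCL2, BMF and BBC3 lie in the upper right under Degrader, while under GDC0068 BMF takes opposite signs (-0.26 and 0.32).

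Levels were compared between genes per kilobase of interval, in CPM per kb. In DMSO the order from the top was MCL1 (14.0 ± 0.725, SD, n = 2), BCL2L1 (7.49 ± 0.0346), BAX (3.34 ± 0.0959), BAK1 (2.81 ± 0.0487), BBC3 (1.56 ± 0.0972) and PMAIP1 (1.24 ± 0.262). BCL2L11 (0.862 ± 0.0317), BMF (0.752 ± 0.0332), BIK (0.671 ± 0.00918) and BCL2 (0.215 ± 0.0116) followed. The libraries of neighbours in this order did not overlap in DMSO. The intervals run from 4311 bp (PMAIP1) to 196733 bp (BCL2), and polymerases paused near the start weigh more in a short interval. The BCL2L1 and BBC3 intervals begin 1095 and 1468 bases downstream of the RefSeq start used, so polymerases near that start lie outside them. For BCL2L11, PMAIP1 and BMF the starts are the same.

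Under GDC0068 the order was the same, but the libraries of BMF overlapped those of BCL2L11 and BIK. Under Degrader BMF, at 1.13 ± 0.0593 CPM per kb, moved above PMAIP1 (1.04 ± 0.222) and BCL2L11 (0.855 ± 0.0603), although BMF and PMAIP1 overlapped, as did PMAIP1 and BCL2L11. BCL2 remained the lowest in all arms, at 0.285 ± 0.0166 under GDC0068 and 0.341 ± 0.00354 under Degrader. Summed over the 3 pro-survival genes, the level was 21.2 and 22.3 CPM per kb in DMSO, 23.8 and 24.3 with GDC0068 and 23.5 in both Degrader libraries. Summed over the 5 BH3-only genes it was 5.02 and 5.15 in DMSO, 5.28 and 5.42 with GDC0068 and 5.61 and 5.96 with Degrader. The effector sums were 6.18 and 6.11 in DMSO, 6.62 and 6.26 with GDC0068 and 6.42 and 6.30 with Degrader. Most of the pro-survival sum is MCL1, whose difference between the drugs was not called in any setting, and the sums were not tested.

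**Figure D4:**
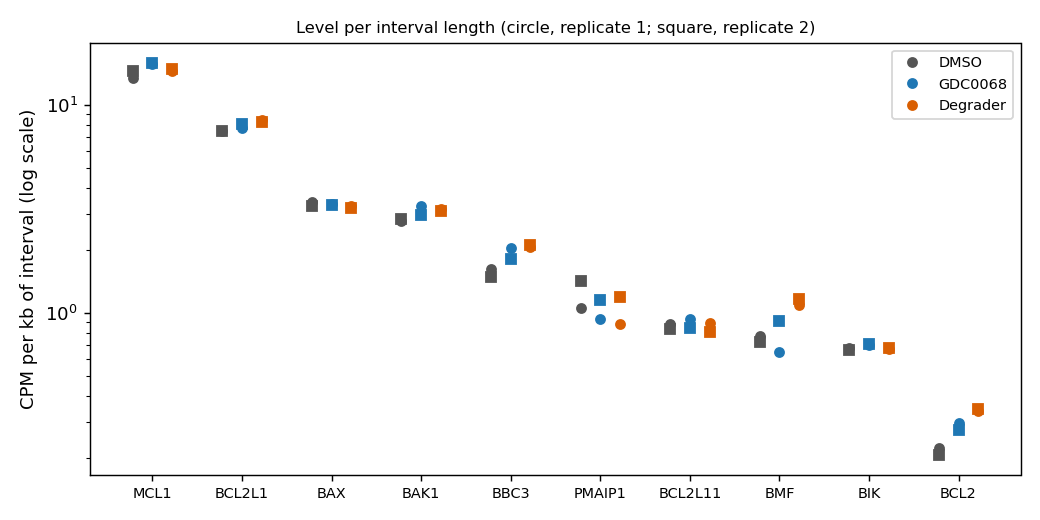
CPM per kb of interval (logarithmic vertical axis) is plotted for each gene, ordered by its DMSO mean, with 1 colour per arm, circles for replicate 1 and squares for replicate 2. MCL1 is highest at 14.0 and BCL2 lowest at 0.215 CPM per kb in DMSO.

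Genes whose levels followed the same course were sought by the correlation of log2 CPM over the 6 libraries, among 18924 genes averaging 1 CPM or more. For BCL2 the closest were FRY, ULK1 and AC017074.1, with Pearson's r of 0.997, 0.995 and 0.995. ULK1, which encodes a kinase that starts autophagy, had means of 139.7, 156.8 and 171.8 CPM in DMSO, GDC0068 and Degrader. For BMF the closest were AC018816.1, MAP2K6 and ACAD10, with r of 0.994, 0.994 and 0.994. These values describe 6 libraries that share arms and experiments, and 942 and 417 genes had an r above 0.9 with BCL2 and BMF.

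The wider apoptosis machinery was read from 6 further lists. Their counts stand beside the shares of all genes called, 15.3% under Degrader and 3.58% under GDC0068, or 30.7% and 17.8% with the replicate block. The first list held 13 tested relatives and partners of BCL2 proteins, among them BAD, BCL2L2 and BNIP3, and also BCLAF1, BNIP2 and MOAP1. None rose and 2 fell under Degrader, a share near that of all genes. Under GDC0068 none was called by edgeR (2 had an unadjusted p under 0.05) or DESeq2. With the replicate block 3 were called higher (BCLAF1, BNIP2 and BNIP3L) and 2 lower under Degrader, and 1 higher (MOAP1) and 1 lower under GDC0068. The genes that fell were BID, the BH3 protein cut by caspase 8, at -0.20 (edgeR adjusted p = 0.0385), and BOK, an effector relative, at -0.30 (edgeR adjusted p = 0.0270). BAD, the direct AKT substrate, had log2 fold changes of 0.05 and 0.03 under Degrader and GDC0068, not called (edgeR adjusted p = 0.569 and 0.776). The median log2 fold change of the list was 0.01 under Degrader and 0.03 under GDC0068, beside 0.00 and 0.01 for all genes.

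Of 17 genes of the apoptosome, the caspases and mitochondrial release, 2 rose and 3 fell under Degrader (all genes, 15.3%) and 1 fell under GDC0068 (all genes, 3.58%). With the replicate block 2 were called higher and 5 lower under Degrader, and 0 higher and 5 lower under GDC0068. The genes that rose were APAF1, the scaffold of the apoptosome, by 0.30 (edgeR adjusted p = 0.00567), and CASP2 by 0.26 (edgeR adjusted p = 0.00661). VDAC1, a channel of the outer mitochondrial membrane, had 63.1 and 55.6 CPM in DMSO and 46.8 and 42.6 CPM under Degrader, which is -0.41 on the log2 scale (edgeR SE 0.0717, adjusted p = 0.00351). ENDOG, a mitochondrial nuclease, changed by -0.44 (edgeR adjusted p = 0.00470). VDAC1 and ENDOG changed by -0.28 and -0.30 under GDC0068, not called without the block (edgeR adjusted p = 0.0521 and 0.0634). The block called both (edgeR adjusted p = 4.19e-04 and 0.00159). Their differences between the drugs, -0.13 and -0.14, were not called with or without the block. APAF1 and CASP2 each changed by 0.09 under GDC0068, also not called with or without it. The median of the list was 0.04 under Degrader and 0.01 under GDC0068. VDAC2, which binds BAK1 at the membrane, changed by -0.19 under Degrader and by -0.24 under GDC0068 (edgeR adjusted p = 0.0257 and 0.0283). Of 7 tested inhibitors of apoptosis, which include XIAP and BIRC5, none was called under either drug by edgeR or DESeq2, and with the replicate block edgeR called 1 under Degrader. Unadjusted p-values under 0.05 numbered 1 under Degrader and 0 under GDC0068, and the medians were 0.08 and -0.02.

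Among 9 tested genes of death receptors, ligands and adaptors, TNFSF10, which encodes the ligand TRAIL, was the one called under each drug. With the replicate block 2 were called under Degrader and 1 under GDC0068. TNFSF10 had 20.8 and 22.3 CPM in DMSO, 27.1 and 29.2 CPM under GDC0068 and 35.9 and 39.9 CPM under Degrader, with no overlap between arms. The log2 fold change was 0.82 under Degrader (edgeR SE 0.0839, adjusted p = 2.30e-04) and 0.39 under GDC0068 (edgeR SE 0.0854, adjusted p = 0.0337). The difference between the drugs, 0.43, was not called without the block (edgeR adjusted p = 0.0664) and was called under the replicate block (edgeR adjusted p = 1.43e-04). The TRAIL receptor gene TNFRSF10B had values of 0.07 and 0.06 under Degrader and GDC0068, neither called (edgeR adjusted p = 0.445 and 0.620). The median of the list was 0.04 under Degrader and 0.03 under GDC0068.

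Of 14 tested genes for transcription factors known to act on BCL2 family genes, 4 rose and 1 fell under Degrader (all genes, 15.3%), and 1, E2F1, fell under GDC0068 (all genes, 3.58%). With the replicate block 5 were called higher and 3 lower under Degrader, and 3 higher and 2 lower under GDC0068. FOXO1 rose by 0.26, FOXO3 by 0.25 and FOXO4 by 0.87 under Degrader (edgeR adjusted p = 0.0256, 0.0103 and 0.00716). Their changes under GDC0068 were 0.20, 0.10 and 0.60, not called without the block (edgeR adjusted p = 0.134, 0.340 and 0.0914). The block called FOXO1 and FOXO4 there (edgeR adjusted p = 0.0242 and 0.0164). Between the drugs they differed by 0.06, 0.15 and 0.27, and only FOXO3 was called with the block (edgeR adjusted p = 0.0138). FOXO4 was low, at 2.6 to 5.5 CPM (SE 0.175 under Degrader). ATF3, a stress-induced factor, rose by 0.28 (edgeR adjusted p = 0.00528). E2F1, a cell cycle factor, changed by -0.43 under Degrader and by -0.36 under GDC0068 (edgeR adjusted p = 9.31e-04 and 0.0113). The medians of the list were 0.01 under Degrader and 0.03 under GDC0068. The last list held 11 tested genes: regulators of MCL1 or BIM stability, and the dynein light chain genes DYNLL1 and DYNLL2. Under Degrader USP9X, a deubiquitinase of MCL1, rose by 0.21, and DYNLL2, whose product binds BMF, changed by -0.19 (edgeR adjusted p = 0.0162 and 0.0166). None of the 11 was called under GDC0068 by edgeR (1 had an unadjusted p under 0.05) or DESeq2. With the replicate block 4 of the 11 were called under Degrader and 2 under GDC0068, and the medians of that list were 0.01 and -0.01. Between the drugs edgeR called no gene of the 6 lists without the block, where 0.266% of all genes were called; from 0 to 3 genes of a list had an unadjusted p under 0.05, and DESeq2 called TNFSF10. With the replicate block, which called 10.4% of all genes, edgeR called 3 genes of the apoptosome list, 2 of the death receptor list and 4 transcription factor genes. It also called 2 genes of the last list (USP9X and DYNLL1) and none of the other 2 lists.

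Leaving out 1 library ended 14 of these 18 calls in at least 1 fit, and 4 held in every such fit: E2F1, ENDOG, TNFSF10 and VDAC1 under Degrader. In such a fit 1 arm has a single library, which is assumed to vary like the libraries of the other arms, and the log2 fold changes were between 0.73 and 1.3 times those from all 6 libraries. Without DMSO replicate 1, the edgeR adjusted p under Degrader was 0.0768 for APAF1, 0.0751 for CASP2, 0.0717 for ATF3, 0.233 for BID, 0.196 for BOK, 0.0947 for FOXO1, 0.0696 for FOXO4, 0.154 for VDAC2, 0.158 for USP9X and 0.111 for DYNLL2. Under GDC0068 it was 0.111 for E2F1, 0.227 for TNFSF10 and 0.173 for VDAC2. Without DMSO replicate 2, the adjusted p was 0.0697 for BID, 0.137 for FOXO1, 0.0736 for FOXO3, 0.0687 for VDAC2 and 0.0647 for DYNLL2 under Degrader, and 0.0980 for TNFSF10 and 0.0999 for VDAC2 under GDC0068 (edgeR). Without Degrader replicate 1, it was 0.0628 for BID, 0.154 for FOXO1, 0.0944 for FOXO3, 0.137 for VDAC2, 0.0683 for USP9X and 0.125 for DYNLL2 (edgeR). Those without Degrader replicate 2 were 0.0723 for APAF1, 0.0656 for ATF3, 0.249 for BID, 0.199 for BOK, 0.0880 for FOXO1, 0.0827 for FOXO4, 0.0966 for VDAC2, 0.142 for USP9X and 0.0711 for DYNLL2 (edgeR). The GDC0068 calls were also lost without GDC0068 replicate 1 (0.0604 for TNFSF10, 0.118 for VDAC2) and replicate 2 (0.145 for TNFSF10, 0.0689 for VDAC2, 0.0702 for E2F1), as edgeR adjusted p. DESeq2 did not call BID, FOXO1 or VDAC2 under Degrader (adjusted p = 0.112, 0.0616 and 0.0708). The signs of all 18 log2 fold changes were the same in the 15 settings.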

How the data were processed

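PRO-seq counts of 6 T47D libraries were used as the authors deposited them: raw counts per gene interval, 1 column per library, matched to samples by the labels. The submitters' processing notes name cutadapt 1.14, Bowtie 1.2.2, SAMtools 1.3.1, HISAT2 2.2.1 and limma, and the builds hg38, GRCh38 and dm3, without roles. The counting tool, use of strand, part of the gene counted and treatment of duplicates are not given in the sources used here, and each can change a count. Coordinates are the table's, counted from 1; all 10 member intervals overlap the RefSeq GRCh38.p14 gene of the same name.

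In R 4.3.3, edgeR 4.0.16 (filterByExpr with a minimum count of 10 and total of 15, TMM, glmQLFit and glmQLFTest) was fitted to all 6 libraries with a term per arm. Calls are genes whose p, adjusted by Benjamini-Hochberg over all 19902 tested, was under 0.05. Standard errors are the log2 fold change over the square root of F. Counting errors cover counting only. DESeq2 1.42.0 and limma 3.58.1 served as alternatives. With 2 libraries per arm, a permutation test between arms cannot pass 0.05.

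The series' 2 independent experiments and the shared replicate numbers pair the libraries: deviations of same-numbered libraries from their arm means correlated across genes with r of 0.18, 0.22 and 0.20 for the 3 pairs of arms. The main fit has no term for this pairing, and the replicate block adds it. Calls from both fits are given because several of them differ. The members and lists were chosen with earlier results of these data known. All members were named, and from each further list up to 2 called genes per comparison, by smallest adjusted p; APAF1, CASP2, FOXO1, FOXO3, FOXO4, VDAC2 under Degrader, and uncalled genes of the lists were named after their values were seen.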

Additional observations from a re-analysis of the deposited data

How the results depend on the processing

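Of 450 values (10 members, 3 comparisons, 15 other settings), 420 kept their sign and side of the threshold, 9 lost a call, 12 gained one and 9 changed sign. The replicate block moved the counts of called members under GDC0068 from 1 to 3 and between the drugs from 0 to 2 (4 against 3 under Degrader), and DESeq2 moved the last from 0 to 1. Leaving out 1 library gave 1 to 4 called members for Degrader, 0 to 1 for GDC0068 and 0 to 1 between the drugs. The block changed no other member's call than those given beside the results. Sign changes were all in values that were never called. They came from fits that left out 1 library. BCL2L11 ranged from -0.09 to 0.05 under Degrader (0.02 without DMSO replicate 1 and 0.05 without Degrader replicate 2), from -0.03 (without GDC0068 replicate 1) to 0.12 under GDC0068, and from -0.13 to 0.02 between the drugs (0.02 without GDC0068 replicate 1 and 0.01 without Degrader replicate 2). BMF under GDC0068 ranged from -0.23 (without GDC0068 replicate 2) to 0.27. Between the drugs PMAIP1 ranged from -0.26 to 0.19 (0.15 without GDC0068 replicate 2 and 0.19 without Degrader replicate 1) and BAK1 from -0.06 (without GDC0068 replicate 2) to 0.09.

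Over all genes, the calls numbered 3039 for Degrader, 712 for GDC0068 and 53 between the drugs. It was 6114, 3540 and 2065 with the replicate block. Between the drugs it was 124 with DESeq2, 116 with robust estimation and 23 in the fit to the 4 libraries compared. Leaving out 1 library of the arms compared gave at least 931 for Degrader, 37 for GDC0068 and 5 between the drugs. Depth limits PMAIP1 most, with counting error up to 9.85%.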
